A study of Mus musculus with 4 samples.

Results

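Vcam1, Sele, Selp, F11r and Cd200 encode surface molecules through which vascular endothelium docks or restrains leukocytes, and they were described here in cultured mouse SVEC endothelial cells given lipopolysaccharide (LPS). The members were the spots whose single gene symbol in the probe annotation was one of these 5 names. This gave 5 of 11138 named genes and 10 of 32448 spots, since each gene was printed as 1 oligonucleotide on 2 adjacent spots. LPS-treated and control RNA were amplified and hybridised together on 4 two-colour arrays, 2 after 4 h and 2 after 24 h, with the Cy5 and Cy3 dyes exchanged on the second array of each time. The dose of 50 ng/ml is stated for 3 of the 4 arrays. SVEC is an established endothelial line, and the labels give no genotype, passage or number of cultures, so each time point was treated as 1 RNA pair hybridised again with the dyes exchanged. The SD printed with a value is therefore technical and does not include differences between cultures.

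LPS comes from the outer membrane of Gram-negative bacteria. Endothelium senses it through Tlr4, and the signal reaches NF-kB, which switches on adhesion genes. Leukocytes first roll on the selectins, Sele (E-selectin, made anew by activated endothelium) and Selp (P-selectin, kept in storage granules and also induced), then arrest when their integrins bind immunoglobulin-family receptors such as Vcam1, and then cross the junctions, where F11r (junctional adhesion molecule A) sits. Cd200 is an immunoglobulin-family glycoprotein that calms myeloid cells through their receptor Cd200r1.

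Every value is a log2 ratio of LPS over control, centred on the median spot of its array. That direction is likely but not stated. The labels name the dye of each RNA, but the deposited ratio was only assumed to be Cy5 over Cy3. If the ratio was formed the other way, all signs flip. The dye-reversed columns were turned in sign by the dyes named in the labels. Before any turning, the correlation over spots within a dye-reversed pair was -0.23 at 4 h and -0.042 at 24 h. At 24 h the correlation thus gave little sign of the reversal. After turning, the correlation across genes, which are not independent replicates, was 0.48 at 4 h and 0.10 at 24 h. A gene was counted as higher or lower when its mean reached 2-fold and neither array fell short of 1.5-fold in that direction. By this rule 14.5% of all genes were past it at 4 h (973 higher, 643 lower) and 2.48% at 24 h (187 higher, 89 lower). The median of a list of 24 abundant transcripts was 2.11 after 4 h and 0.09 after 24 h. With each array centred on that list, the counts became 77 higher and 9453 lower at 4 h and 144 higher and 138 lower at 24 h. All 4 h values are therefore relative to the median spot. No member was at a spot ratio of exactly 1 on any array.

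Vcam1 was higher after 24 h with LPS and was the only member past the rule at that time. Its log2 ratio at 24 h was 1.90 with LPS in Cy5 and 1.33 with LPS in Cy3, which are 3.72-fold and 2.51-fold. Its mean was 1.61 ± 0.40 (SD, 2 arrays), or 3.06-fold, and 123 of 11138 genes had a higher mean. The 2 spots read 2.24 and 1.56 on the first array and 1.30 and 1.35 on the second, so all 4 spot readings lay above 2-fold. At 4 h Vcam1 read 0.80 in Cy5 and 0.08 in Cy3, a mean of 0.44 ± 0.51 that did not pass the rule. The 4 h arrays thus differed from each other by more than their mean. Both 24 h arrays lay above both 4 h arrays. Of the 5 members, 1 was past the rule at 24 h, against 2.48% of all genes in either direction and 1.68% upward. The members were chosen with earlier results of these data known, so this comparison is no test.

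**Figure D1:**
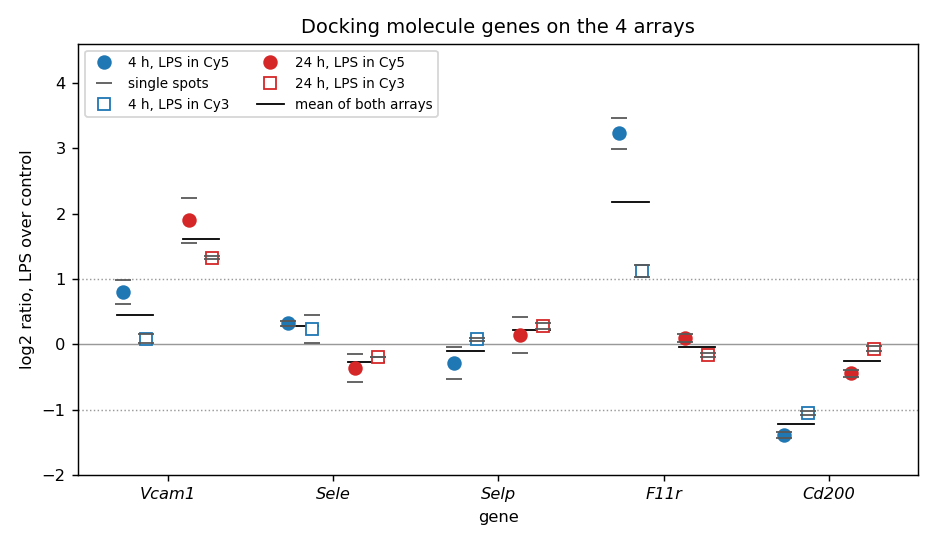
Log2 ratio of LPS over control (vertical axis) for the 5 genes (horizontal axis) on the 4 arrays. Filled circles are arrays with LPS in Cy5, open squares those with LPS in Cy3, short grey bars the single spots, black bars the mean of both arrays, and dotted lines mark 2-fold. Vcam1 stands above 2-fold on both 24 h arrays, at 1.90 and 1.33, F11r on both 4 h arrays, at 3.23 and 1.13, and Cd200 below it on both 4 h arrays, at -1.39 and -1.06.

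The selectins did not pass the rule at either time. Sele read 0.32 and 0.23 on the 4 h arrays, a mean of 0.28 ± 0.07 (SD, 2 arrays), and -0.36 and -0.19 on the 24 h arrays, a mean of -0.28 ± 0.12. Its 4 readings kept 1 sign within each time and opposite signs between the times, at sizes of 1.21-fold each way. Its 2 spots at 4 h ranged from 0.01 to 0.44. Selp read -0.29 and 0.08 at 4 h, a mean of -0.11 ± 0.26, and 0.14 and 0.28 at 24 h, a mean of 0.21 ± 0.10. Its 4 h arrays lay on either side of 0, and on the first 24 h array its 2 spots, at -0.14 and 0.42, did so too. Counted by mean, 3454 genes stood above Sele at 4 h and 8510 at 24 h, and 6531 and 3475 stood above Selp, so both selectins sat within the bulk of all genes.

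The upstream sequences of Sele and Selp are shown because cytokine-driven selectin transcription is known to run through this region. The RefSeq promoter table held 4 of the 5 members, and Vcam1 was not among them. The stretches are the 250 bases before the start in GRCm38.p6, plus strand, chr1:164047984-164048233 for Sele and chr1:164115014-164115263 for Selp. Capitals mark matches, on either strand, to a kappaB half-site (GGGAA), a loose AP-1 pattern (TGANTCA, any base at N) or a TATA box (TATAAA).
Sele: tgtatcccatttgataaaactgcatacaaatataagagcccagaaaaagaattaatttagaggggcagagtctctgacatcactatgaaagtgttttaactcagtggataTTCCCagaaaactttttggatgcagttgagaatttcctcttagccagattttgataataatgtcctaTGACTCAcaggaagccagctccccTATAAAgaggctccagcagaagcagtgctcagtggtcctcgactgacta
Selp: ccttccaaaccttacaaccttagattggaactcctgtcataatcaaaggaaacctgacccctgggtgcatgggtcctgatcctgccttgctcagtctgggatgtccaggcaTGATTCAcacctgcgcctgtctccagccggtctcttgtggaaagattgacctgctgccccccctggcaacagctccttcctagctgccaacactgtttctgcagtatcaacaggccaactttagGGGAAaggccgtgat
The Sele stretch held 1 half-site match, on the minus strand from 140 to 136 bases before the start, 1 AP-1 match from 73 to 67 bases before it and a TATA box from 49 to 44. The Selp stretch held 1 half-site match from 15 to 11 bases before the start, 1 match to the loose AP-1 pattern from 139 to 133 and no TATAAA. That Selp match reads TGATTCA, with T at the free base where Sele has C, so it may not be an AP-1 site. Over 32851 promoter entries of the same length, the half-site was in 56.2%, the AP-1 pattern in 6.75% and TATAAA in 12.4%. These patterns were chosen after longer ones had been searched in the same stretches. A match describes the letters only and says nothing on binding in these cells.

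F11r was the highest member at 4 h and was near 0 at 24 h. It read 3.23 with LPS in Cy5 and 1.13 with LPS in Cy3 at 4 h, which are 9.38-fold and 2.19-fold, for a mean of 2.18 ± 1.49 (SD, 2 arrays) or 4.53-fold. Both arrays passed 2-fold, and the arrays differed by more than those of any other member. The spots of an array agreed more closely, at 3.46 and 2.99 on the first and 1.22 and 1.04 on the second. At 24 h it read 0.09 and -0.17, a mean of -0.04 ± 0.18. With centring on the abundant transcripts, the 4 h value was 0.07 and F11r no longer passed the rule. Higher calls made up 8.74% of all genes at 4 h, and 335 genes had a higher mean.

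The F11r stretch is shown beside those of the selectins, since F11r is expressed at resting junctions. It is plus strand, chr1:171437311-171437560, with the same patterns in capitals.
F11r: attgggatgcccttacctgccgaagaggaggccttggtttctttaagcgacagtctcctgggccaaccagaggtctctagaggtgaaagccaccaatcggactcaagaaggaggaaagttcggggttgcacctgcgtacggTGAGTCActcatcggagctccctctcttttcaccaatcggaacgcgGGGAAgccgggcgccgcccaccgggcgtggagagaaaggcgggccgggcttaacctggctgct
It held 1 half-site match, 1 AP-1 match (TGAGTCA) and no TATAAA, the same counts as the Selp stretch, so these patterns do not set them apart. In the 250 bases before the start of Cd200 the half-site matched 2 times, and neither the AP-1 pattern nor TATAAA matched.

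Cd200 was lower at 4 h. It read -1.39 with LPS in Cy5 and -1.06 with LPS in Cy3, which are 2.62-fold and 2.08-fold lower, for a mean of -1.22 ± 0.24 (SD, 2 arrays), or 2.34-fold lower. All 4 spot readings at 4 h lay between -1.43 and -1.03, a narrower range than that of F11r. At 24 h the arrays read -0.44 and -0.07, a mean of -0.26 ± 0.26, which did not pass the rule. Lower calls made up 5.77% of all genes at 4 h, and 634 genes had a lower mean. With centring on the abundant transcripts, Cd200 lay at -3.33, and Vcam1, Sele and Selp also counted as lower at 4 h, at -1.67, -1.83 and -2.22. At 4 h, then, 2 of 5 members were past the rule, in opposite directions, against 14.5% of all genes. As at 24 h, this comparison is no test, since earlier results of these data were known when the members were chosen.

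**Figure D2:**
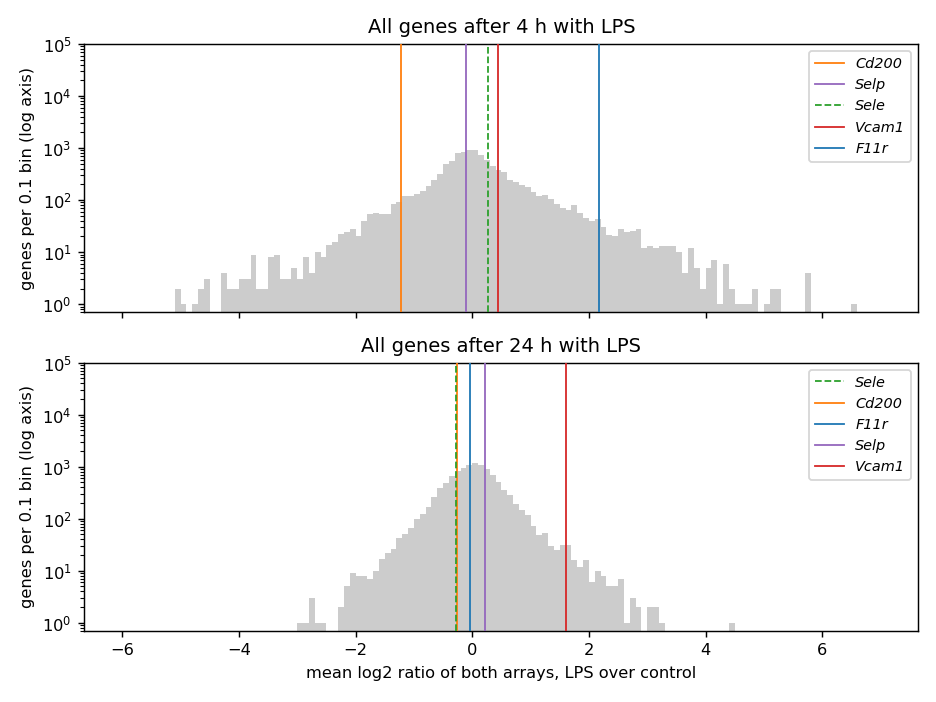
Number of genes per 0.1 bin (vertical log axis) by mean log2 ratio of LPS over control (horizontal axis) after 4 h (top) and 24 h (bottom), with the 5 genes as coloured lines. At 4 h F11r, at 2.18, and Cd200, at -1.22, stand on the shoulders of a wide distribution; at 24 h Vcam1, at 1.61, stands alone among the members in the upper tail.

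The order of the members changed between the times. At 4 h it ran F11r, Vcam1, Sele, Selp, Cd200. Vcam1 and Sele overlapped in their arrays there, and the other neighbours in that order did not. At 24 h it ran Vcam1, Selp, F11r, Cd200, Sele. The arrays of F11r, Cd200 and Sele overlapped with those of their neighbours in that order, Selp and F11r were apart by a narrow margin (0.14 against 0.09), and Vcam1 stood 1.40 above Selp. These are ratios and give no order of transcript levels, since the table held no intensities.

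Between the times, a gene was counted as different when its means differed by at least 1 (log2) and both arrays of a time lay beyond both of the other. By this rule 18.2% of all genes differed, 8.23% upward and 9.99% downward from 4 h to 24 h. Vcam1 was higher at 24 h by 1.17, and F11r was lower by a difference of -2.22. Cd200 was higher at 24 h by 0.97, just short of the rule, Selp by 0.32, and the difference of Sele was -0.55. With 1 RNA pair per time these differences have no test. Without the 4 h array with LPS in Cy3, or without the 24 h array with LPS in Cy5, Vcam1 missed the rule and Cd200 met it. F11r met it without any single array but not with centring on the abundant transcripts.

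A response shared by both times was tested with limma on the 2 pair means. It called 0 of 11138 genes (0.0%) at a Benjamini-Hochberg adjusted p of 0.05, and 513 had an unadjusted p under 0.05. The fit had 1 residual degree of freedom per gene. Vcam1 had a shared log2 ratio of 1.03 ± 0.40 (SE) with a limma adjusted p of 0.761. It was above 0 on 4 of 4 arrays, which are repeats of 2 RNA pairs. Cd200 lay at -0.74 ± 0.37 (SE, limma adjusted p = 0.761), below 0 on 4 of 4 arrays. F11r lay at 1.07 ± 0.64 (SE, limma adjusted p = 0.761), above 0 on 3 of 4. For Selp the shared ratio was 0.05 ± 0.28 (SE, limma adjusted p = 0.986), and for Sele it was 0.00 ± 0.30 (SE, limma adjusted p = 1.0). None of the 5 passed the test, as no gene did. With centring on the abundant transcripts, the shared ratio was -0.07 ± 1.11 (SE) for Vcam1 and -0.03 ± 1.11 for F11r. With that centring it was -1.84 ± 1.11 for Cd200, -1.10 ± 1.11 for Sele and -1.05 ± 1.11 for Selp. The fit counts any difference between the times as error, so it cannot decide on a response at a single time.

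Each pair was split into an LPS part, the mean of both arrays, and a dye part. The dye part is 0.5 times the difference of the Cy5 array minus the Cy3 array. With a single array per orientation, the dye part also holds any other difference between the arrays of a pair. Dye bias cannot be told apart from it. The SD of a pair rests on the same difference. For Vcam1 at 24 h the dye part was 0.28 beside an LPS part of 1.61, and for Cd200 at 4 h it was -0.17 beside -1.22. F11r at 4 h had the largest dye part of the members, 1.05 beside 2.18. For Vcam1 at 4 h the dye part was 0.36 beside 0.44, and for Selp at 4 h the dye part, -0.18, was larger in size than the LPS part, -0.11. The same held for F11r at 24 h, at 0.13 beside -0.04. The SD within a pair had a median over genes of 0.307 at 4 h and 0.319 at 24 h. Vcam1 at both times and F11r at 4 h lay above that, and Cd200 lay below it at both.

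**Figure D3:**
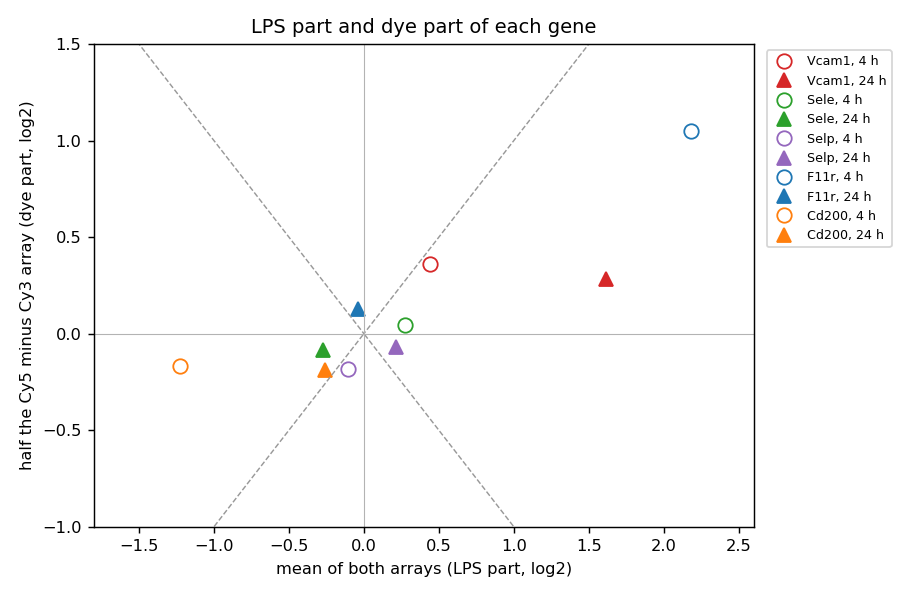
Dye part (vertical axis, log2) against LPS part (horizontal axis, log2 ratio of LPS over control) of the 5 genes at 4 h (open circles) and 24 h (filled triangles). The dye part also holds any other difference between the arrays of a pair. Points between the dashed lines and the horizontal axis have an LPS part larger in size than the dye part, as Vcam1 at 24 h (1.61 and 0.28), Cd200 at 4 h (-1.22 and -0.17) and F11r at 4 h (2.18 and 1.05).

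The spots of 1 oligonucleotide gave a second view of error. Over 12172 adjacent pairs the median difference was between 0.20 and 0.27 on the 4 arrays. The 95th percentile was far larger, between 1.84 and 2.89. The spots of Vcam1 differed by 0.68 on the 24 h array with LPS in Cy5, more than in 81.1% of pairs, and by 0.05 on the other 24 h array. Those of Cd200 differed by at most 0.11 on any array. Those of F11r differed by 0.47 and 0.18 at 4 h.

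The genes whose readings lay nearest to a member on the 4 arrays were found by Euclidean distance in log2 units over all named genes. Nearest to Vcam1 were Igtp, an interferon-inducible immunity-related GTPase, at a distance of 0.28, Saa-ps, annotated as a serum amyloid A pseudogene, at 0.39, and Dusp16, a MAP kinase phosphatase, at 0.51. Igtp read 0.81 and 0.01 at 4 h, at means of 0.41 and 1.67 for 4 h and 24 h, so its 4 h arrays were split in the same way. Nearest to F11r were Rita1 (0.13), the mitotic kinase gene Cdk1 (0.17) and the antizyme gene Oaz1 (0.36). Cdk1 read 3.13 and 1.13 at 4 h. Cd200 had Ppa2, a mitochondrial pyrophosphatase, Cmtm6 and the ephrin receptor gene Ephb4 within 0.22. Sele had Ezh2, Rhd and Grin2d within 0.10, and Selp had Colec11, Cep131 and Cdh9 within 0.09, in the part of the range where most genes lie. Each distance rests on 4 values from 2 RNA pairs, so it describes these arrays only.

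Of 142 other genes of leukocyte adhesion, listed by role with earlier results of these data known, 116 were measured. At 4 h, 11 were higher and 3 lower, 12.1% against 14.5% of all genes, with a median of 0.00. At 24 h, 3 were higher and 0 lower, 2.59% against 2.48%, with a median of 0.07 beside 0.02 for all genes. None of the 18 measured docking molecules passed the rule at either time, with medians of -0.18 and 0.18. With centring on the abundant transcripts, 17 of the 18 on this list counted as lower at 4 h. Leaving out either 4 h array also changed which genes passed at 4 h. Icam1, L1cam and Cd34 were on that list but had no spot with a single gene symbol, so nothing is known of them here. Pecam1, a homophilic receptor of endothelial contacts, lay at -0.20 ± 0.28 (SD, 2 arrays) and 0.18 ± 0.29 at 4 h and 24 h. Icam2, a constitutive integrin ligand, lay at -0.45 ± 0.10 and -0.58 ± 0.61. Icam4, a further integrin ligand, read 0.61 and 1.32 at 24 h, a mean of 0.97 ± 0.50 just short of the rule, and counted as different between the times, at 1.13. Without the 24 h array with LPS in Cy5, Icam4 (1.32), Mcam (1.02) and Ceacam1 were past 2-fold as higher, and without the one with LPS in Cy3, Icam2 and Ceacam1 were past it as lower.

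Among all genes, 8.74% were higher and 5.77% lower at 4 h, and 1.68% higher and 0.80% lower at 24 h. In the junction list, 1 of 18 was lower at 4 h and 1 was higher at 24 h. The lower one was Cdh5, VE-cadherin, at -3.47 ± 2.12 (SD, 2 arrays), whose 2 oligonucleotides read 0.27 and -7.21. The higher one was Ctnnb1, beta-catenin, which links cadherins to actin, at 1.18 ± 0.28. The F11r relatives Jam2 and Jam3 lay at -0.16 and 0.24 at 4 h and at 0.15 and 0.46 at 24 h, neither past the rule. Among 13 leukocyte partners, 2 were higher and 1 lower at 4 h and 0 passed at 24 h. Itgb1, the chain that pairs with Itga4 to bind Vcam1, lay at 3.77 ± 0.94 at 4 h, and Itga4 at -0.07 ± 0.37. Glg1, an E-selectin ligand of the Golgi, lay at 1.60 ± 0.39, and Itgal at -1.89 ± 0.44. Selplg, the main P-selectin ligand, lay at 0.26 ± 0.62 and -0.31 ± 0.12, and Cd200r1, the Cd200 receptor, at -0.45 ± 0.59 and -0.38 ± 0.19.

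Among 14 enzymes that build selectin ligands, Tpst1, a tyrosine sulfotransferase, was higher at 4 h at 3.23 ± 1.60 (SD, 2 arrays), and Chst4, a sulfotransferase of selectin ligands, was lower at -2.22 ± 0.34. St3gal6, a sialyltransferase, was higher at 24 h at 1.21 ± 0.64. Its 2 oligonucleotides read 0.60 and 1.81, and the median of its spots gave 0.33. The docking cup is the actin-rich structure that gathers around bound leukocytes. Of 19 of its genes, 4 were higher at 4 h, against 8.74% of all genes, and 0 passed at 24 h. These were the membrane linkers Ezr (2.82 ± 1.49) and Rdx (2.58 ± 0.30), the actin crosslinker Flna (2.20 ± 0.24) and the caveolar protein gene Cav1 (2.54 ± 1.21). With centring on the abundant transcripts none of the 4 passed, at 0.71, 0.47, 0.09 and 0.43 in that order. The third linker of that family, Msn, lay at -0.48 ± 0.54.

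None of 22 measured transcription factors and inhibitors tied to adhesion genes passed the rule at either time. The NF-kB subunit gene Nfkb1 was listed but not measured. Rela, an NF-kB subunit, lay at 0.08 ± 0.25 (SD, 2 arrays) and -0.17 ± 0.31, Irf1 at 0.30 ± 0.14 and 0.05 ± 0.03, and Nfkbia, the NF-kB inhibitor and target, at 0.96 ± 0.43 and 0.20 ± 0.10. Tnfaip3, another feedback inhibitor and target of NF-kB, lay the other way, at -0.91 ± 0.14 and -1.04 ± 1.10, below 0 on 4 of 4 arrays. Irf2 lay at -0.16 ± 0.25 and -1.42 ± 1.44, with 24 h arrays at -2.44 and -0.40. With centring on the abundant transcripts, 21 of these 22 genes counted as lower at 4 h, Nfkbia and Tnfaip3 among them. Of 12 genes of shedding and storage, 4 were higher at 4 h, against 8.74% of all genes, and 1 at 24 h, against 1.68%. Adam17, a protease that cuts Vcam1 from the surface, lay at 1.18 ± 0.41 at 4 h and 0.26 ± 0.19 at 24 h. Its inhibitor Timp3 lay at 3.31 ± 1.21 and -0.28 ± 0.08, Scarb2, a lysosomal membrane protein gene, at 1.31 ± 0.68 and 0.51 ± 0.17, and Adam9 at 1.54 ± 0.23 and 1.16 ± 0.33. With centring on the abundant transcripts, the 4 h values of Glg1, Adam17, Adam9 and Scarb2 turned below 0, and of the 11 pathway genes higher at 4 h only Itgb1 and Timp3 still passed.

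**Figure D4:**
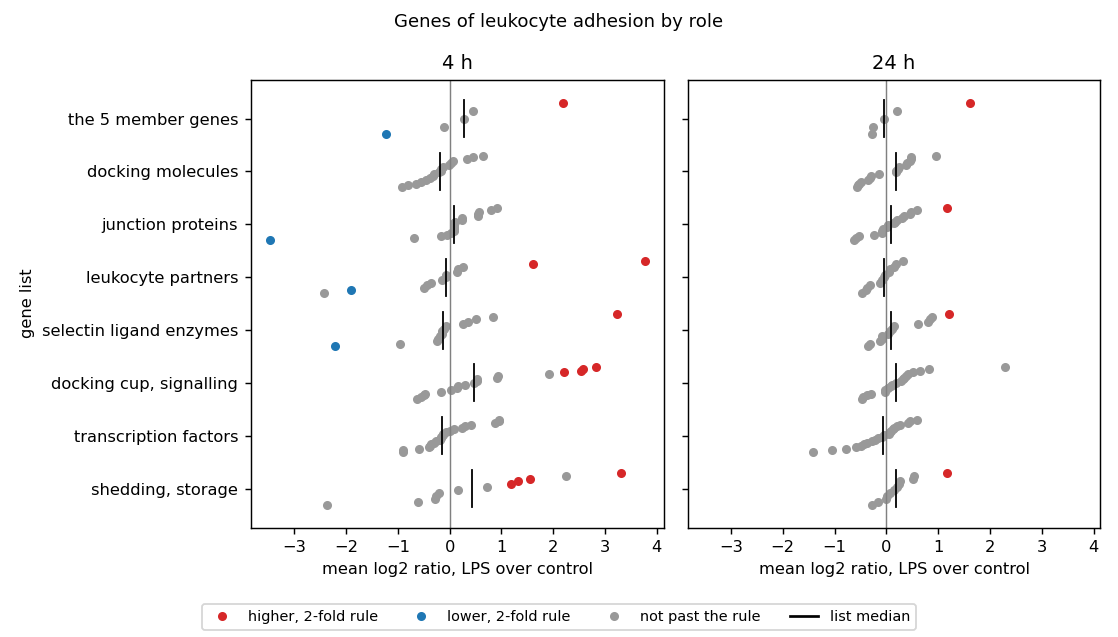
Mean log2 ratio of LPS over control (horizontal axis) at 4 h (left) and 24 h (right) for the 5 member genes and for 7 lists of other adhesion genes (vertical axis, 1 point per gene, spread vertically by rank). Red points are higher and blue points lower by the 2-fold rule, grey points did not pass it, and black lines are list medians. At 24 h Vcam1, at 1.61, and 3 of 116 other genes are red and none is blue.

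Markers of other cells were set beside these values. Ratios give no level, so whether the culture held such cells, or expressed its own endothelial markers, could not be read from them. In RNA of a whole culture, fewer cells of a type and less RNA per cell cannot be told apart. The shares of all genes were 8.74% higher and 5.77% lower at 4 h, and 1.68% and 0.80% at 24 h. Of 15 endothelial markers, 0 were higher and 2 lower at 4 h (Cdh5, and Plvap at -1.43 ± 0.69, SD, 2 arrays), and 0 passed at 24 h. None of 7 platelet markers passed at either time. Of 16 leukocyte markers, 0 passed at 4 h and Coro1a alone was higher at 24 h, at 1.05 ± 0.15. Of 11 epithelial markers, which matter for F11r because epithelium expresses it, 0 were higher and Cldn3 was lower at 4 h, at -1.66 ± 0.56. Of 10 mural and fibroblast markers, 5 were higher at 4 h (Col3a1 at 3.05, Pdgfra at 1.92, Dcn at 1.70, Acta2 at 1.48, and Col1a1), Lum was lower at -1.40, and Pdgfra was higher at 24 h at 1.14. Centred on the abundant transcripts, none of those 5 passed at 4 h. All 15 endothelial, 16 leukocyte and 7 platelet markers then counted as lower at 4 h. So did 10 of 11 epithelial markers and 5 other mural and fibroblast markers. The part of these lists in the values of the members was not tested.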

How the data were processed

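The authors deposited 1 table of log2 ratios of both dyes for 32448 spots on 4 arrays, without intensities. The log2 scale was read from the values: 2 raised to their size lies on steps of 0.01 within 0.02 of a step, in 99.96% or more of each array's spots. The sources used here do not name the scanner, background correction or normalization. The number of arrays limits the precision. Of all spots, 24344 had 1 gene symbol, 98 several and 8006 none. Entrez identifiers of 98.9% of named spots were in the RefSeq table of GRCm38.p6, and 0 symbols changed. Arrays were centred on their median spot, dye-reversed arrays turned in sign, spots of a gene averaged, and both arrays of a time averaged. The shared response was fitted with limma 3.58.1 in R 4.3.3 (lmFit, eBayes, intercept only); the rule and the fit were checked on simulated data. The 5 members and all lists were chosen with earlier results of these data known. Named genes were the members, pathway and marker genes past the 2-fold rule (up to 6 a pathway list), and the 3 nearest genes per member. Pecam1, Icam2, Icam4, Mcam, Ceacam1, Jam2, Jam3, Itga4, Selplg, Cd200r1, Msn, Rela, Irf1, Irf2, Nfkbia, Tnfaip3 and the genes of the last section were named outside that rule, after their values were seen. Alternatives were other centrings, scalings, fold thresholds, spot summaries, exact ratios of 1 as not measured, each array left out, and other limma settings.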

Additional observations from a re-analysis of the deposited data

Results flagged for a closer look

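In 7 of the 66 genes named here (10.6%), every array of 1 time lay on the opposite side of 0 from every array of the other. The share was 14.1% of all genes and 9.48% of the 116 pathway genes. These differences between the times were not tested. Sele was above 0 on both 4 h arrays and below 0 on both 24 h arrays, with a difference of -0.55 (log2, 24 h minus 4 h), and neither time passed the 2-fold rule. St3gal6 went the other way, with a difference of 1.39, and its 4 h mean was -0.18. Timp3, higher at 4 h, was at -0.28 at 24 h, with a difference of -3.59. Cd44 lay below 0 at 4 h and above it at 24 h, with a difference of 1.02. The others were the genes nearest to Sele, chosen for readings like its own: Ezh2 at -0.60, Rhd at -0.50 and Grin2d at -0.64.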

How the results depend on the processing

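Vcam1 passed the 2-fold rule at 24 h under all 14 alternatives to it, at 1.33 to 2.40. F11r passed it at 4 h under 13 of 14, failing with centring on abundant transcripts, and Cd200 under 13 of 14, failing at 3-fold. Sele and Selp passed only at 4 h, as lower, with that centring, and Vcam1 at 4 h too. At 3-fold, 1 member passed at 4 h, 1 differed between the times, and 0 pathway genes passed at 24 h. At 1.5-fold, 33 pathway genes passed at 4 h and 14 at 24 h, against 14 and 3. At 24 h, 6 passed with quantile normalization and 6 on the mean alone. Leaving out arrays gave 14 to 30 pathway genes at 4 h and 3 to 8 at 24 h. Centring on abundant transcripts, added after seeing the data, gave 4 members and 103 pathway genes past the rule at 4 h and 4 members that differed. It reversed the 4 h values of Glg1 (-0.51), Adam17 (-0.93), Adam9 (-0.57), Scarb2 (-0.79), Acta2 (-0.63), Col1a1 (-0.91), Dcn (-0.41) and Pdgfra (-0.19). Over all genes, higher and lower calls at 4 h, 973 and 643, became 1651 and 1270 at 1.5-fold and 569 and 306 at 3-fold. At 24 h, 187 and 89 became 751 and 521, 73 and 15, 388 and 280 on the mean alone, and 411 and 148 with quantile normalization. Without the Cy5 or the Cy3 array, they were 1376 and 1007 or 1476 and 996 at 4 h, and 771 and 310 or 502 and 818 at 24 h. The shared fit called 0 genes under each of its 15 alternatives, with 271 to 1245 at an unadjusted p under 0.05. No paired analysis was possible because array numbers name the dye orientation of 1 RNA pair. Without intensities, faint spots could not be told from bright ones.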

Other observations

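Several adhesion genes had arrays of a pair that disagreed by several units on the log2 scale, so that their means describe neither array. They were named after their values were seen. Actn1, which encodes the actin crosslinker alpha-actinin, read 3.62 and 0.20 at 4 h and 0.17 and 4.43 at 24 h. Ceacam1, an immunoglobulin-family adhesion molecule, read -2.83 and 1.22 at 4 h. Itgb7, the beta chain that with Itga4 binds Madcam1 and Vcam1, read -4.56 and -0.27 at 4 h. Rab27a, a GTPase of granule release, read -0.45 and -4.29, and Cd63, a membrane protein of the granules that hold Selp, read 3.97 and 0.53. Cd44, a hyaluronan receptor that also binds selectins, was steadier: it lay at -0.55 ± 0.07 (SD, 2 arrays) at 4 h and at 0.48 ± 0.02 at 24 h, and counted as different between the times, at 1.02, without passing 2-fold at either.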
